A study of Mus musculus with 30 samples.

Results

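The step from Flk1+ cells to the first stage of haemogenic endothelium (HE1) was examined in mouse embryonic stem cells (ESC) whose Sp1 lacks its DNA-binding domain. It was defined by the sample labels alone, as the HE1 samples against the Flk1+ samples of the mutant genotype, and rests on 4 of the 30 samples of the series. All 14685 genes of the expression table entered it, of which 14525 passed the filter on low values.

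The series followed RNA through the differentiation of ESC into blood progenitors, to ask how far the paired transcription factors Sp1 and Sp3 are needed at each stage. It holds 5 populations (ESC, Flk1+, HE1, HE2 and progenitor) in 3 genotypes, with 2 samples of each. All cells belong to the E14 line of ESC, and the labels name no allele or treatment beside the genotype. The genotypes are WT, Sp1_deltaDBD (Sp1ΔDBD/ΔDBD, in which both alleles encode a protein without the zinc fingers that contact DNA) and Sp3KO (Sp3-/-, no Sp3 protein). Flk1+ cells were drawn on magnetic columns from embryoid bodies with an antibody to Flk1, a VEGF receptor. They were then plated in blast culture, and HE1 cells were sorted from it at day 2 as KIT+ Tie2+ CD41-, from floating and adherent cells together. The labels name no clone, so the genotype and the clone that carries it cannot be told apart. The study's methods give a range of days in embryoid bodies that depended on the cell line. The labels name no day, so a difference in day between the genotypes cannot be told apart from the genotype. The study's methods call the 2 samples of a group biological replicates, but the labels name no separate cultures. The p-values rest on the spread between the samples of a group, pooled over all 15 groups of the series, and this spread may be technical.

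Flk1+ mesoderm is the source of both endothelium and blood. It leaves the primitive streak under Nodal, Wnt, BMP and FGF signals, switches on the ETS factor Etv2 and the SCL/TAL1 complex, and gives rise to endothelial cells. A fraction of these, the haemogenic endothelium, later acquires RUNX1 and turns into blood cells, a change called the endothelial to haematopoietic transition. Sp1 and Sp3 are ubiquitous zinc finger proteins that bind the same GC box motif. In ESC of another line, the study found Sp1 equally at promoters and distal sites, and Sp3 slightly more often at distal ones. In Flk1+ cells of that line the share at promoters was slightly higher for both.

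Expression was given in FPKM (fragments per kilobase of transcript, scaled to the mapped fragments of the library), quantile-normalised by the authors so that every sample has the same distribution of values, with a median of 7.19 FPKM. No read counts were used here, so the depth of each sample is unknown. The lowest value of a library stands for a gene that was not detected there. It was 0 in both Sp1ΔDBD/ΔDBD Flk1+ samples, and 0.0009405 and 0.002507 FPKM in the HE1 samples, where 942 and 1038 genes sat at it. Changes are differences of group means of log2(FPKM + 0.1), HE1 minus Flk1+, given with their standard error (SE). The added 0.1 holds down the change of weakly expressed genes, and the size of a change depends on it for a gene at the lowest value in both samples of one population. A gene was said to rise or fall where the adjusted p of limma's moderated test was below 0.05. With only 2 samples in each population, exact permutation of 1 gene's values has a smallest two-sided p of 0.333. Because RNA was taken from bulk populations, fewer cells of a kind and less RNA per cell cannot be told apart.

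The replicates were not equally close, and this touches several results. Among genes with a mean above 3 FPKM, 202 of 9507 differed more than 2-fold between the Sp1ΔDBD/ΔDBD Flk1+ samples, against 46 of 9472 between those of WT. Between the HE1 samples it was 370 of 9529 in Sp1ΔDBD/ΔDBD cells and 335 of 9525 in WT. In the mutant Flk1+ samples the difference had a direction. The 28 genes of the primitive streak list summed to 1007 and 598 FPKM, with 27 of them higher in replicate 1. The 33 genes of the endothelial list summed to 302 and 425 FPKM, with 31 higher in replicate 2. In HE1, the contractile list had the widest gap between replicates in both genotypes. Its genes summed to 2709 and 1494 FPKM in the mutant and to 4264 and 1570.2 FPKM in WT, with 23 of 27 higher in replicate 1 in both genotypes. The endothelial list was split in WT HE1 too, at 2791 and 3855 FPKM, with 4 of 33 genes higher in replicate 1. In mutant HE1 17 of the 33 were. The part of these differences between replicates in the results was not tested.

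The markers used for isolation are described here without a test, since they chose the cells. Kdr, which encodes Flk1, was at 165 and 257 FPKM in Sp1ΔDBD/ΔDBD Flk1+ cells and at 208 and 358 FPKM in HE1. Tek, which encodes Tie2, was at 4.14 and 8.94 FPKM before and 141 and 234 FPKM after the step. Kit was at 4.24 and 6.14 and then at 13.9 and 23.9 FPKM. Itga2b, which encodes CD41, was at 2.44 and 5.84 FPKM in Flk1+ cells and at 42.8 and 55.7 FPKM in HE1, although HE1 cells were gated as negative for the protein. In the CD41+ populations of the mutant Itga2b stood at 97 and 115 FPKM (HE2) and 59.1 and 119 FPKM (progenitor), so the HE1 samples were the lowest of the 3 sorted populations.

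The transcript of Sp1 itself was at 27.2 and 28.9 FPKM in mutant Flk1+ cells and 19.9 and 27.9 FPKM in mutant HE1, against 41.2 and 46 FPKM in WT Flk1+ cells and 25.6 and 24.9 FPKM in WT HE1. A value for the whole gene does not resolve the deleted exons and so does not check the genotype. Sp3 was at 43.3 and 49.3 FPKM before and 40.3 and 45.3 FPKM after the step, and neither gene passed the test for a change.

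In Sp1ΔDBD/ΔDBD cells 3042 genes rose from Flk1+ to HE1 and 3648 fell, which is 20.9% and 25.1% of the genes tested. Of these, 949 rose and 689 fell by more than 2 on the log2 scale, and 19 rose and 23 fell by more than 6. By a rule of size alone (a fold above 2 and a mean above 3 FPKM) 1354 genes were higher in HE1 and 1157 lower, or 9.32% and 7.97%. The median change over all genes was -0.09. The counts of each gene list below are to be read against these shares and this median. Of the genes that rose, 83 were at the lowest value in both Flk1+ samples, and of those that fell, 186 were at the lowest value in both HE1 samples. With each of the 4 mutant libraries left out in turn, between 2423 and 2653 genes rose and between 2793 and 3098 fell.

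**Figure D1:**
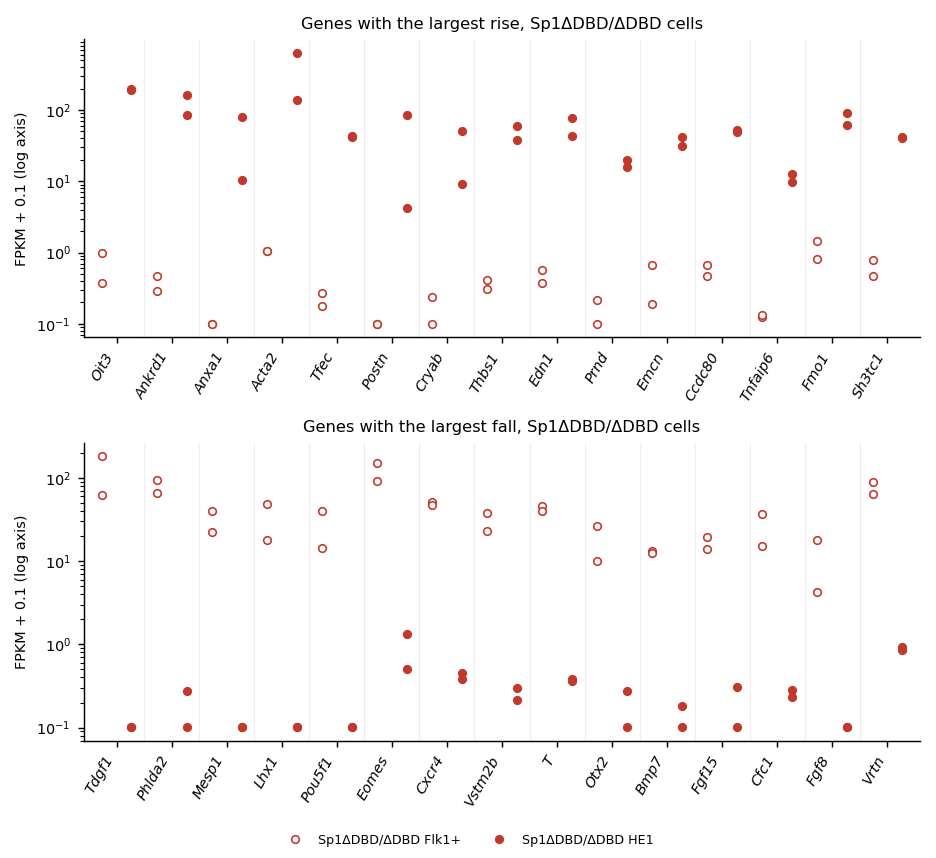
FPKM + 0.1 on a log axis in each Sp1ΔDBD/ΔDBD sample (open points, 2 Flk1+ samples, filled points, 2 HE1 samples) for the 15 largest rises (top) and the 15 largest falls (bottom) among called genes with a mean of at least 10 FPKM in one population. The choice of genes required the HE1 points and the Flk1+ points to be apart. Points at the bottom of the axis are genes at or near a library's lowest value. The HE1 points of Anxa1, Postn, Acta2 and Cryab are the farthest from each other.

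The 15 largest rises included Emcn of the endothelial list, Thbs1 and Postn of the matrix list and Acta2 of the contractile list. Edn1, which encodes the vasoconstrictor peptide endothelin 1 made by endothelial cells, went from 0.463 and 0.27 FPKM to 42.6 and 78.3 FPKM, a rise of 6.99 ± 0.72 (log2, SE, limma adjusted p = 2.7e-07). Emcn, the endothelial sialomucin endomucin, went from 0.0877 and 0.571 to 41.5 and 31.6 FPKM and rose by 6.68 ± 0.48 (limma adjusted p = 3.7e-09). Thbs1, the matrix glycoprotein thrombospondin 1, went from 0.318 and 0.207 to 59.4 and 38.3 FPKM, a rise of 7.06 ± 0.40 (limma adjusted p = 1.4e-10). The choice of these genes required both HE1 samples to lie above both Flk1+ samples (the populations did not overlap in 71.7% of all genes). In each of the genes just given, the HE1 replicates were within 2-fold of each other. Tfec, a transcription factor of the TFE family, rose from 0.168 and 0.0756 to 41.3 and 43.2 FPKM (7.61 ± 0.30, limma adjusted p = 2.0e-12). Oit3 headed the genes with a mean of at least 10 FPKM, from 0.274 and 0.89 to 189.5 and 199 FPKM (8.32 ± 0.50, limma adjusted p = 3.6e-10). Ankrd1, known as a target of the mechanosensitive YAP and TAZ cofactors, rose from 0.193 and 0.364 to 160.4 and 86.1 FPKM. Ccdc80, Tnfaip6, Prnd, Fmo1 and Sh3tc1 completed the group in which the replicates of HE1 were close, with values between 9.74 and 90.5 FPKM there.

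In 4 further genes of the group the HE1 replicates differed by more than 4-fold, always with replicate 1 the higher. Acta2, the smooth muscle actin, was at 0.959 and 0.935 FPKM in Flk1+ cells and at 631 and 139 FPKM in HE1 and rose by 8.15 ± 1.10 (limma adjusted p = 7.7e-06). Postn, the matrix protein periostin, was listed at 0 in both Flk1+ samples and stood at 85.3 and 4.1 FPKM in HE1 (limma adjusted p = 2.4e-04). Anxa1, an annexin, was likewise listed at 0 and then at 79 and 10.5 FPKM (limma adjusted p = 2.4e-06), and Cryab, a small heat shock protein, went from 0 and 0.139 to 50.1 and 8.93 FPKM. WT cells had the same split, with 1138 and 224 FPKM of Acta2 and 89.8 and 6.74 FPKM of Postn in HE1 replicates 1 and 2.

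The 15 largest falls included Eomes, T and Mesp1, known from the primitive streak, and Pou5f1, known from pluripotent cells. Eomes, a T-box factor of the streak, went from 151 and 91.9 FPKM to 0.402 and 1.23 FPKM and fell by 7.17 ± 0.45 (limma adjusted p = 6.1e-10). T (Brachyury) went from 46.1 and 39.6 to 0.265 and 0.278 FPKM, a fall of 6.85 ± 0.58 (limma adjusted p = 2.5e-08). The chemokine receptor gene Cxcr4 fell by 6.88 ± 0.62, from 51.5 and 46.8 to 0.28 and 0.357 FPKM. In each case under 2 FPKM was left in HE1. Both HE1 samples lay below every Flk1+ sample, as the choice of genes required (no overlap in 71.7% of all genes). Mesp1, which marks the earliest cardiovascular mesoderm, had 39.8 and 22 FPKM in Flk1+ cells and was at the lowest value of both HE1 libraries (limma adjusted p = 2.0e-12). The same held for Tdgf1, the Nodal co-receptor Cripto, at 180.5 and 62.1 FPKM before the step, for Lhx1 at 48.9 and 17.7 FPKM, for Fgf8 at 17.9 and 4.17 FPKM and for Pou5f1, which encodes OCT4, at 39.7 and 14.4 FPKM. In all of these genes the first Flk1+ replicate was the higher. Otx2, Bmp7, Phlda2, Cfc1, Fgf15, Vstm2b and Vrtn made up the rest of the 15 largest falls.

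**Figure D2:**
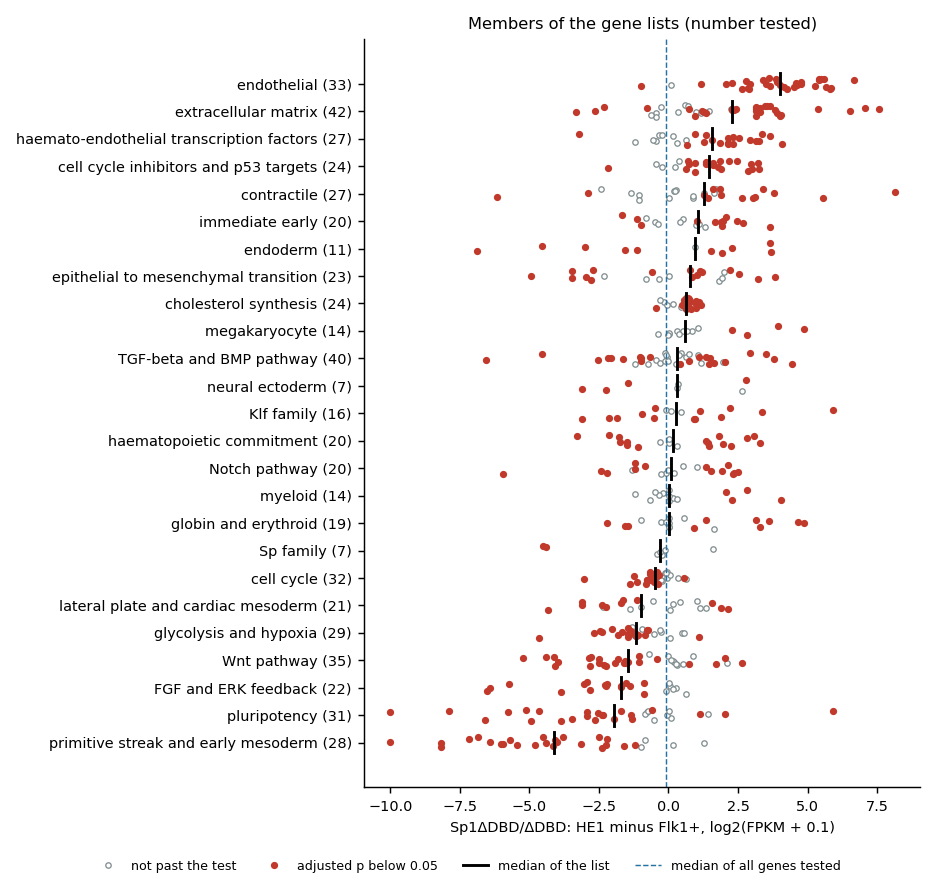
Change from Flk1+ to HE1 in Sp1ΔDBD/ΔDBD cells, HE1 minus Flk1+ in log2(FPKM + 0.1), for each member of the gene lists other than the sort markers (points, filled red where the limma adjusted p was below 0.05), ordered by the list median (black bar), with the median of all genes tested as a dashed line at -0.09. The endothelial list has the highest median and the primitive streak list the lowest. Members at a library's lowest value are placed by the added 0.1.

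The endothelial genes rose almost without exception. Of the 33 genes tested, 31 rose, 1 fell and 1 was not called, with a median change of 4.01 against -0.09 over all genes. Cdh5, which encodes the junction protein VE-cadherin, went from 5.84 and 14.8 FPKM to 479.7 and 591 FPKM and rose by 5.82 ± 0.30 (limma adjusted p = 6.0e-11). Cd34 went from 0.723 and 2.14 to 92.1 and 29.5 FPKM, and its HE1 samples differed 3-fold. Pecam1, another junction molecule, went from 2.82 and 6.75 to 167 and 237 FPKM, and Eng, a co-receptor for BMP9, from 3.47 and 4.81 to 111 and 115 FPKM. The member that fell was Aplnr, the apelin receptor of early mesoderm, from 62.8 and 88.1 to 35.7 and 38.9 FPKM, a fall that was not called without Flk1+ replicate 2 or HE1 replicate 1. It was no longer called without Flk1+ replicate 2 or without HE1 replicate 1, whereas the count of 31 rises was the same without any one of the 4 libraries. The list summed to 2695 and 2883 FPKM in mutant HE1. No member was at the lowest value of both libraries of either population.

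Most of the transcription factors of endothelium and of emerging blood rose. Of 27 tested, 18 rose, 1 fell and 8 were not called, with a median of 1.56. The endothelial members were among the rises: Nr2f2, a factor of venous identity, went from 0.106 and 0.165 to 3.25 and 4.63 FPKM (4.09 ± 0.39), Sox17, a factor of arterial identity, from 0.979 and 1.19 to 17.4 and 12.6 FPKM (3.66 ± 0.38), and the ETS factor Erg from 2.81 and 5.52 to 31 and 40.9 FPKM. Etv2, the ETS factor that starts the programme in mesoderm, went from 43.6 and 25.7 to 4.26 and 2.94 FPKM and fell by 3.21 ± 0.46 (limma adjusted p = 1.3e-05), and the falls were 2 without Flk1+ replicate 1. Tal1, Lmo2, Gata2 and Runx1 were among the 8 members that did not pass, while Lyl1, Cbfb and Cbfa2t3, also known from blood, were among the rises. Tal1 was at 28.1 and 50.3 FPKM before and 24.2 and 27.3 FPKM after, Lmo2 at 50.9 and 49.1 and then 44.9 and 41.1 FPKM, and Gata2 at 14.3 and 24.5 and then 14 and 15.7 FPKM. Runx1, on which the endothelial to haematopoietic transition depends, was at 7.6 and 12 FPKM in Flk1+ cells and 3.99 and 4.24 FPKM in HE1. Both HE1 values of Runx1 were the lower ones, but the change of -1.20 did not pass (limma adjusted p = 0.17).

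Blood genes were low in HE1. Of 20 genes of haematopoietic commitment, 9 rose and 7 fell. Among the rises were Was, an actin regulator of blood cells, from 0.265 and 0.421 to 4.51 and 2.85 FPKM, and Gfi1, a repressor that shuts off endothelial genes, from 0.561 and 0.875 to 1.71 and 2.4 FPKM. Those that fell were Gfi1b, Spi1, Gata1, Klf1, Myb, Ikzf1 and Coro1a. Gata1 went from 0.896 and 2.45 to 0.157 FPKM and the lowest value and Myb from 3.09 and 6.55 to 0.895 and 2.61 FPKM. These falls depended on single libraries, with 2 of 20 called without Flk1+ replicate 2 and 3 without HE1 replicate 2, and Klf1 was not called whichever library was left out. In 3 members of the list, Gfi1b, Myb and Nfe2, the mutant step was lower than that of Sp3-/- cells, a comparison in which 0.234% of all genes passed in that direction. Myb changed by -1.49 in Sp1ΔDBD/ΔDBD cells and by 1.58 in Sp3-/- cells, and Gfi1b by -1.08 and 2.33.

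Among 19 globin and erythroid genes 7 rose and 3 fell, and 8 were at the lowest value of both Flk1+ libraries. The embryonic globins were called: Hbb-bh1 went from 0.108 and 0.592 to 12.6 and 7.24 FPKM, and Hba-x, listed at 0 in Flk1+ cells, stood at 5.29 and 1.53 FPKM in HE1. Adult globin pairs such as Hba-a1 and Hba-a2 are near-identical copies, and the reads of one cannot be safely told from those of the other. Of the 14 megakaryocyte genes 4 rose, among them the platelet receptor gene Clec1b from 0 and 0.0714 to 8.81 and 1.56 FPKM, and of the 14 myeloid genes 4 rose, among them the cytokine receptor gene Csf2rb from 0.0115 and 0.047 to 1.79 and 2.21 FPKM. No member of either list fell. In mutant HE1 the 19 erythroid genes summed to 113 and 112 FPKM, the megakaryocyte genes to 29.7 and 17.3 FPKM and the myeloid genes to 10.7 and 12.6 FPKM, against 2695 and 2883 FPKM of the endothelial list.

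**Figure D3:**
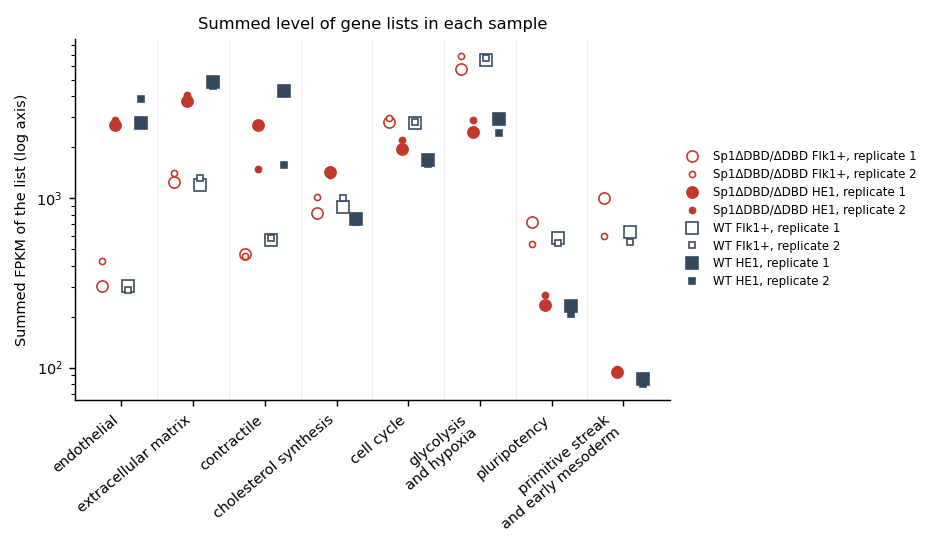
Summed FPKM of the members of gene lists in each Flk1+ and HE1 sample of Sp1ΔDBD/ΔDBD and WT cells, on a log axis, 1 point per sample. In Sp1ΔDBD/ΔDBD cells the endothelial sum is 302 and 425 FPKM before and 2695 and 2883 FPKM after the step, and the contractile list has the widest gap between HE1 replicates.

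The genes of the primitive streak and early mesoderm fell as a group. Of 28 tested, 24 fell and 0 rose, with a median of -4.11, and 7 of them (Mesp1, Fgf8, Lefty1, Tdgf1, Lhx1, Msgn1 and Sp8) were at the lowest value of both HE1 libraries. The list summed to 1007 and 598 FPKM in Flk1+ cells and 94.2 and 98.6 FPKM in HE1. Cdx2, Tbx6, Rspo3 and Apln were not called. Without one library at a time between 21 and 24 members fell. Pluripotency genes followed, with 20 of 31 falling and 3 rising, and 10 at the lowest value in both HE1 samples. Klf2, which is in this list as a factor of naive ESC and is also known as a flow-induced factor of endothelium, went from 0.241 and 0.42 to 25.4 and 24.5 FPKM and rose by 5.90 ± 0.49 (limma adjusted p = 1.9e-08). Klf4 and Dppa4 were the other rises, with Klf4 at 1.8 and 2.26 and then 3.56 and 5.74 FPKM.

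The lateral plate and cardiac mesoderm genes were mixed, with 8 of 21 falling and 3 rising. Isl1, a factor of the second heart field, went from 5.11 and 4.63 to 0.0992 and 0.206 FPKM (-4.33) and Tbx5, of the first heart field, from 1.86 and 2.91 to 0.279 and 0.104 FPKM (-3.13). Hand2 went from 8.68 and 17.1 to 56.9 and 36.7 FPKM and Nkx2-5 from 0.841 and 0.356 to 3.85 and 1.97 FPKM. Nkx2-5 was no longer called without Flk1+ replicate 2 or HE1 replicate 1. Of 7 neural ectoderm genes 1 (Nes) rose and 3 fell, Zic2 among them, with 2 rises without HE1 replicate 2, and of 11 endoderm genes 5 rose and 5 fell, with 3 falls called without Flk1+ replicate 1 or HE1 replicate 1. Sox17, Cxcr4 and Gata6 of the endoderm list are also expressed in mesoderm or endothelium.

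Of the signalling lists, those of FGF and Wnt held more falls than rises. In the FGF list, which holds ligands, receptors and the feedback genes of the ERK cascade, 16 of 22 genes fell and 0 rose. Fgf15 was at 13.8 and 19.4 FPKM in Flk1+ cells and at the lowest value and 0.209 FPKM in HE1, and the ETS effector Etv4 went from 15 and 10.2 to 5.22 and 1.13 FPKM. The ERK feedback phosphatase gene Dusp6 fell by 0.87 ± 0.34, from 56.1 and 22.2 to 23.4 and 15.9 FPKM. In the Wnt list 21 of 35 genes fell and 4 rose. The ligand Wnt5b went from 9.32 and 5.42 to 0.0888 and 0.10 FPKM and the target Sp5 from 9.86 and 3.69 to 0.248 and 0.145 FPKM. Axin2, a feedback target, fell by 2.48 ± 0.30, from 29.4 and 21.5 to 4.04 and 4.83 FPKM. The rises were the receptors Fzd4, Fzd5 and Fzd8 and the inhibitor Dkk2, of which Fzd4, a receptor known from vessels, went from 1.81 and 3.43 to 10.4 and 10.9 FPKM. Of these 4 rises, 2 were called without Flk1+ replicate 2 or without HE1 replicate 1.

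The TGF-beta and BMP list was balanced, with 12 of 40 genes rising and 10 falling. Of the ligands, Bmp6 rose by 4.45 ± 0.48, from 1.34 and 2.52 to 43.4 and 41.2 FPKM (limma adjusted p = 5.8e-07), while Bmp7 went from 13.1 and 12.5 FPKM to 0.082 FPKM and the lowest value. Bmp4, a signal that makes mesoderm, went from 41.8 and 47.4 to 21.7 and 9.46 FPKM (-1.63) and Bmp5 from 16.4 and 17.8 to 0.66 and 0.622 FPKM (-4.54). Of the receptors, Acvrl1 (ALK1, the endothelial receptor for BMP9) went from 1.56 and 2.9 to 30.7 and 31.5 FPKM (3.81 ± 0.45). The inhibitory Smad6 rose by 1.08 ± 0.26, from 20.6 and 23.6 to 62.3 and 35 FPKM, and the targets Id1, Id3 and Id4 were not called.

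In the Notch list 7 of 20 genes rose and 6 fell. Those that rose were Notch1, Notch4, Jag1, Jag2, Dll4, Mfng and Maml2, among them the receptor and the ligand of arterial endothelium: Notch4 went from 0.517 and 0.539 to 4.39 and 2.77 FPKM and Dll4 from 0.0911 and 0.22 to 1.21 and 1.13 FPKM. Those that fell included the somite and streak ligands Dll3, from 12.1 and 5.13 to the lowest value and 0.0642 FPKM, and Dll1, from 2.72 and 1.2 to 0.458 and 1.16 FPKM. Lfng fell too, but was not called without Flk1+ replicate 1 or HE1 replicate 2.

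Matrix genes rose more widely than they fell, with 26 of 42 rising and 4 falling and a median of 2.27. The basement membrane collagens were high and close between replicates, Col4a1 at 78.1 and 78.1 FPKM before and 648 and 735 FPKM after the step (3.14 ± 0.25) and Col4a2 at 37.9 and 36.7 and then 344 and 386 FPKM (3.28 ± 0.28). Sparc went from 20.7 and 54.5 to 181 and 168 FPKM. Fbln1, Fbln2, Col6a2 and Vcan fell, Fbln1 from 16.7 and 18.1 to 2.67 and 2.67 FPKM. Without HE1 replicate 1, 22 members rose and 3 fell, and without Flk1+ replicate 2, 2 fell.

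Of the 27 contractile genes, 12 rose, 2 fell and 13 were not called. Tagln, an early smooth muscle protein, went from 4.59 and 3.36 to 341 and 104 FPKM and rose by 5.54 ± 1.05 (limma adjusted p = 2.6e-04). The cardiac genes went both ways: Myh7 was at 0.0114 and 0.0306 and then 1.2 and 1.14 FPKM, and Myl7, the atrial myosin light chain, went from 19.2 and 17.3 to 0.532 FPKM and the lowest value (-6.17). There were 9 rises without Flk1+ replicate 1, without Flk1+ replicate 2 or without HE1 replicate 1, and 4 falls without HE1 replicate 1. In the list of the epithelial to mesenchymal transition 9 of 23 genes rose and 7 fell. Vim, the intermediate filament vimentin, went from 167 and 219 to 1729 and 1849 FPKM (3.22 ± 0.18), and the epithelial genes Epcam and Cldn6 were at the lowest value of both HE1 libraries after 5.02 and 1.78 FPKM of Epcam and 0.647 and 0.504 FPKM of Cldn6 in Flk1+ cells. Cdh2, the N-cadherin gene, went from 83.5 and 63.3 to 44 and 53 FPKM, and its fall of 0.59 ± 0.20 differed from the change of -2.06 in Sp3-/- cells (limma adjusted p = 0.023).

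The genes that run the cell cycle went down by a little in many members. Of 32 tested, 22 fell and 1 rose, with a median of -0.50. The replication helicase gene Mcm5 went from 118 and 129 to 87.3 and 93.6 FPKM (-0.45), Ccne1 (cyclin E1) from 48.7 and 39 to 16.9 and 16 FPKM (-1.40), and Ccnd3 (cyclin D3) rose from 53.1 and 59.9 to 85.8 and 80.3 FPKM. Mki67 was at 126 and 173 and then 107 and 143 FPKM and was not called. The count of falls was 14 of 32 without HE1 replicate 1.

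Inhibitors of the cycle and targets of p53 moved the other way, with 19 of 24 rising and 1 falling and a median of 1.47. Cdkn1a, the p21 inhibitor, went from 4.5 and 3.11 to 30.1 and 31.8 FPKM (3.01 ± 0.20, limma adjusted p = 9.2e-10). Eda2r, a receptor gene induced by p53, rose by 3.27 ± 0.21, from 6.17 and 6.95 to 50.5 and 81.2 FPKM, and Cdkn2a, which encodes p16 and ARF, from 0.404 and 0.308 to 6.17 and 2.78 FPKM. Trp53 itself was not called, at 111 and 104 and then 80.8 and 102 FPKM. The member that fell was Pmaip1, which encodes the pro-apoptotic NOXA, and 2 fell without HE1 replicate 1.

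Among 20 immediate early genes, which respond within minutes to stimuli and also to cell dissociation, 9 rose and 3 fell. Atf3 went from 3.95 and 4.14 to 40 and 65.8 FPKM, Jun from 9.04 and 8.08 to 53.9 and 55.9 FPKM and Fos from 9.04 and 4.87 to 23.7 and 33.3 FPKM. The falls, of Egr2, Ier5 and Myc, were 0 without Flk1+ replicate 1 and 1 without HE1 replicate 2. Flk1+ cells were purified on columns and HE1 cells by sorting, and the part of this handling in the result was not tested. In the list of glycolysis and hypoxia genes 19 of 29 fell and 1 rose (0 without Flk1+ replicate 1 or HE1 replicate 1), with a median of -1.18. Ldha, lactate dehydrogenase A, went from 1038 and 1125 to 282 and 336 FPKM (-1.81), Pgk1 from 542 and 648 to 196 and 275 FPKM (-1.35), and the lactate exporter gene Slc16a3 from 59.9 and 84.7 to 2.73 and 2.79 FPKM (-4.64). The list summed to 5804 and 6912 FPKM before and 2445 and 2903 FPKM after the step.

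The genes of cholesterol synthesis rose together by a small amount. Of 24 tested, 17 rose, 1 fell and 6 were not called, with a median of 0.63. Hmgcs1, which makes the HMG-CoA that feeds the pathway, went from 139 and 210.3 to 226 and 284 FPKM (0.57 ± 0.19, limma adjusted p = 0.017). Lss, which closes the sterol ring, went from 17.5 and 23.2 to 31.6 and 27.3 FPKM (0.54 ± 0.16), and Idi1, an isomerase of the isoprenoid steps, from 27.1 and 31.8 to 45.9 and 45.1 FPKM (0.63 ± 0.21). In these 3 genes both HE1 samples were above both Flk1+ samples. Srebf2, the transcription factor that drives the pathway, was the member that fell, from 49.9 and 49.8 to 33.9 and 39.8 FPKM, and it was not called whichever of the 4 libraries was left out. The number of rises was 10 without Flk1+ replicate 1 and 11 without HE1 replicate 1.

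The Sp and Klf families share the zinc finger fold and overlap in the sequences they bind. Of 7 Sp genes, Sp5 and Sp8 fell, and Sp1, Sp2, Sp3, Sp4 and Sp6 were not called. Sp4 was at 12.2 and 12.7 FPKM in mutant Flk1+ cells and 8.23 and 12.1 FPKM in mutant HE1, against 3.16 and 2.46 and then 0.972 and 1.28 FPKM in WT. In both populations the mutant samples of Sp4 were above those of WT, by 2.12 ± 0.23 (log2) in Flk1+ cells (limma adjusted p = 1.5e-05) and 3.05 ± 0.23 in HE1 (limma adjusted p = 6.7e-08). In the comparison of the genotypes 2.92% of all genes were higher in mutant Flk1+ cells and 5.69% in mutant HE1. Of 16 Klf genes 7 rose and 6 fell, the largest rise being that of Klf2, with 3 falls called without Flk1+ replicate 1 and 2 without Flk1+ replicate 2 or HE1 replicate 1.

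The same step was made by WT cells, where 3416 genes rose and 4280 fell (23.5% and 29.5%). Over all genes the changes in Sp1ΔDBD/ΔDBD and WT cells had a Pearson r of 0.884 (a description over genes, which do not replicate each other). The regression of the mutant change on the WT change had a slope of 0.801. Of the genes that rose in the mutant 82.9% also rose in WT, which is 73.9% of those that rose in WT, and for the falls the shares were 82.2% and 70.1%. The endothelial list had 31 rises in both genotypes, with a median of 4.01 in the mutant and 5.43 in WT. The streak list had 24 falls in the mutant and 22 in WT. In the pluripotency list the counts of falls were 20 and 18, in the FGF list 16 and 13 and in the glycolysis list 19 and 21.

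**Figure D4:**
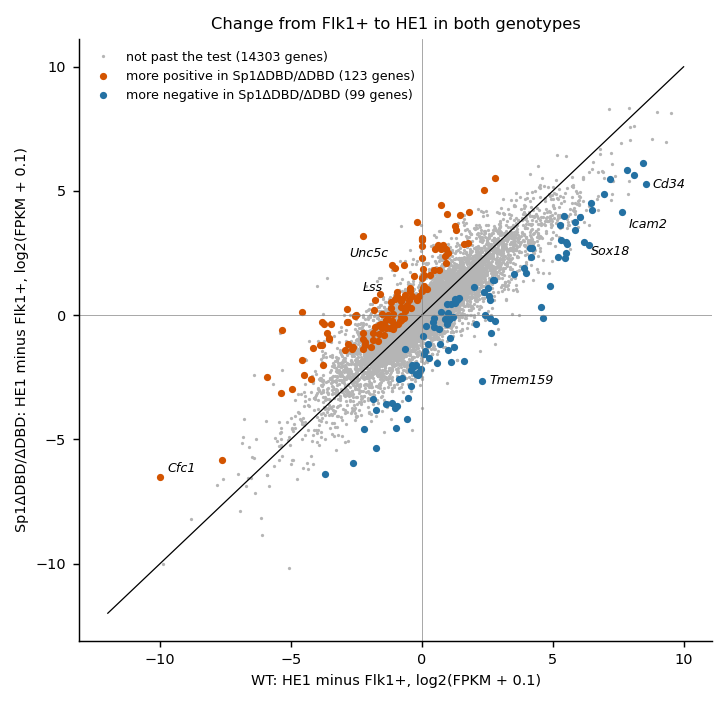
Change from Flk1+ to HE1 in log2(FPKM + 0.1) in WT cells (x axis) and in Sp1ΔDBD/ΔDBD cells (y axis) for 14525 genes (grey), with the 123 genes whose change was more positive in the mutant and the 99 whose change was more negative in colour. Most genes lie along the diagonal, and the coloured genes on either side of it.

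The difference between the mutant step and the WT step passed the test in 222 genes, 123 with a more positive change in the mutant (0.847%) and 99 with a more negative one (0.682%). At an unadjusted p below 0.05 there were 1901. In limma fits to other samples these counts were 12 and 5 with the 8 samples of both genotypes alone, and 0 and 0 where replicate numbers formed blocks among the 12 Flk1+ and HE1 samples, a fit in which 2803 genes had an unadjusted p below 0.05. With such blocks among all 30 samples they were 226 and 207. They also depended on single libraries. Without WT Flk1+ replicate 2 they were 32 and 20, without Sp1ΔDBD/ΔDBD HE1 replicate 2 they were 48 and 41, without WT Flk1+ replicate 1 they were 58 and 41, without Sp1ΔDBD/ΔDBD Flk1+ replicate 1 they were 56 and 59, and without WT HE1 replicate 1 they were 69 and 49. Among the 123 genes, 15 rose in both genotypes, 36 fell in both, 25 rose in the mutant and were not called in WT, 32 fell in WT and were not called in the mutant, and 15 rose in the mutant and fell in WT. Those 15 were Abcg2, Acat2, Cbx7, Hmgcs1, Hpn, Idi1, Insig1, Klf8, Lss, Macrod1, Msmo1, Slc19a2, Slc24a5, Spink1 and Unc5c, and 5 of them (Hmgcs1, Idi1, Insig1, Lss and Msmo1) are in the cholesterol list. Among the 99 genes, 41 rose in both genotypes and 8 (Ascc2, Ccdc8, Ebf1, Gstk1, Optn, Renbp, Tmem159 and Tspan17) fell in the mutant and rose in WT. The Sp3-/- step lay on the same side of the WT step in 116 of the 123 genes and in 89 of the 99. Both mutants were set against the same WT samples, so these counts are a description and no test.

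The cholesterol list was on the positive side of WT in all 24 members, with a median difference of 0.80 against 0.02 over all genes. Of these differences 10 passed (all genes, 0.847% on the positive side). Hmgcs1 (chr13:119690379-119708260 in mm10) went from 143 and 163 to 88.6 and 84.6 FPKM in WT, and its change was 0.57 in the mutant and -0.82 in WT, a difference of 1.38 ± 0.26 (limma adjusted p = 0.011). Lss (chr10:76531588-76557138) had 16.4 and 18.9 FPKM in WT Flk1+ cells and 8.47 and 7.21 FPKM in WT HE1, and its difference was 1.71 ± 0.23 (limma adjusted p = 0.0012). Idi1 (chr13:8885501-8892451) had 25.2 and 28.2 and then 15.1 and 11.2 FPKM in WT and a difference of 1.66 ± 0.30 (limma adjusted p = 0.0088). Mvd, Msmo1, Dhcr7 and Insig1 were among the others. In WT cells 2 of the 24 members rose and 9 fell (all genes, 23.5% and 29.5%). The genotypes differed in more members at the HE1 end of the step. In HE1, 16 of 24 members were higher in the mutant than in WT (all genes, 5.69%), and 14 or 15 were with any 1 of the 4 HE1 libraries left out. In Flk1+ cells 0 were called higher and 0 lower in limma (all genes, 2.92% and 2.62%). Among the 10 genes the mutant HE1 samples lay above the WT HE1 samples in all (groups did not overlap in 50.0% of all genes, in either direction). In Flk1+ cells the mutant samples lay below those of WT in 4, above in 1 and overlapped in 5. The 10 genes were chosen by a difference that contains both of these comparisons, so these positions are a description of the genes and no test. In Sp3-/- cells the change of Hmgcs1 was -0.33, of Idi1 -0.17 and of Lss -0.68, and the difference between the mutant steps passed for Lss (limma adjusted p = 0.022). Only 1 of the 10 differences from WT was called without WT Flk1+ replicate 2, 4 without Sp1ΔDBD/ΔDBD Flk1+ replicate 1 and 6 without Sp1ΔDBD/ΔDBD HE1 replicate 2 or without WT HE1 replicate 2, and 0 in a fit to the 8 samples alone.

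The endothelial list was on the negative side of WT in 30 of 33 members, with a median difference of -1.37 against 0.02 over all genes. The slope of the mutant change on the WT change was 0.801 over all genes, and its part in these positions was not tested. In the list 9 of the differences passed (all genes, 0.682% on the negative side), those of Cdh5, Pecam1, Esam, Icam2, Cd34, Plvap, Rasip1, S1pr1 and Cd93. In all 9 the gene rose in both genotypes. Icam2, an adhesion molecule of endothelium and blood (chr11:106377656-106388075), had 3.25 and 3.01 FPKM in mutant and 0.259 and 0.28 FPKM in WT Flk1+ cells, and in HE1 it had 54.2 and 61.6 FPKM in mutant and 57.4 and 94.2 FPKM in WT cells. Its change was 4.16 in the mutant, 7.64 in WT and 4.26 in Sp3-/- cells, and the difference from WT was -3.48 ± 0.38 (limma adjusted p = 1.5e-04). Cdh5 had 1.62 and 2.09 FPKM in WT Flk1+ cells and 402 and 501 FPKM in WT HE1, so its HE1 values overlapped between the genotypes and its difference was -2.03 ± 0.43 (limma adjusted p = 0.019). Cd34 had 0.319 and 0.261 and then 139 and 153 FPKM in WT and a difference of -3.28 ± 0.66 (limma adjusted p = 0.014). Here the genotypes differed in more members at the Flk1+ end. In Flk1+ cells 14 of 33 members were higher in the mutant than in WT and 1 lower (all genes, 2.92% and 2.62%). The 14 became 4 without Sp1ΔDBD/ΔDBD Flk1+ replicate 2 and 7 without either WT Flk1+ replicate. In HE1, 1 was higher and 2 lower (all genes, 5.69% and 4.35%), and with any 1 of the 4 HE1 libraries left out 0 were higher and 0 to 2 lower. Among the 9 genes the mutant Flk1+ samples were above the WT ones in all (Flk1+ groups did not overlap in 55.2% of all genes, in either direction), and in HE1 the samples overlapped in 6 and were lower in the mutant in 3 (Esam, Cd34 and Plvap). These 9 genes too were chosen by a difference that contains both comparisons, so the positions are a description. The mutant Flk1+ samples also held the split in this list given above, with sums of 302 and 425 FPKM against 302 and 288 FPKM in WT. The WT HE1 samples were split as well, with sums of 2791 and 3855 FPKM. In Flk1+ cells 14 of the 33 genes were below 1 FPKM in both WT samples and 7 in both mutant samples. Without WT Flk1+ replicate 2, 1 of the 9 was called, without Sp1ΔDBD/ΔDBD Flk1+ replicate 2 there were 2, without WT HE1 replicate 2 there were 3, and without WT Flk1+ replicate 1 or Sp1ΔDBD/ΔDBD HE1 replicate 2 there were 4. A fit to the 12 Flk1+ and HE1 samples called 3 and a fit to the 8 samples 1.

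**Figure D5:**
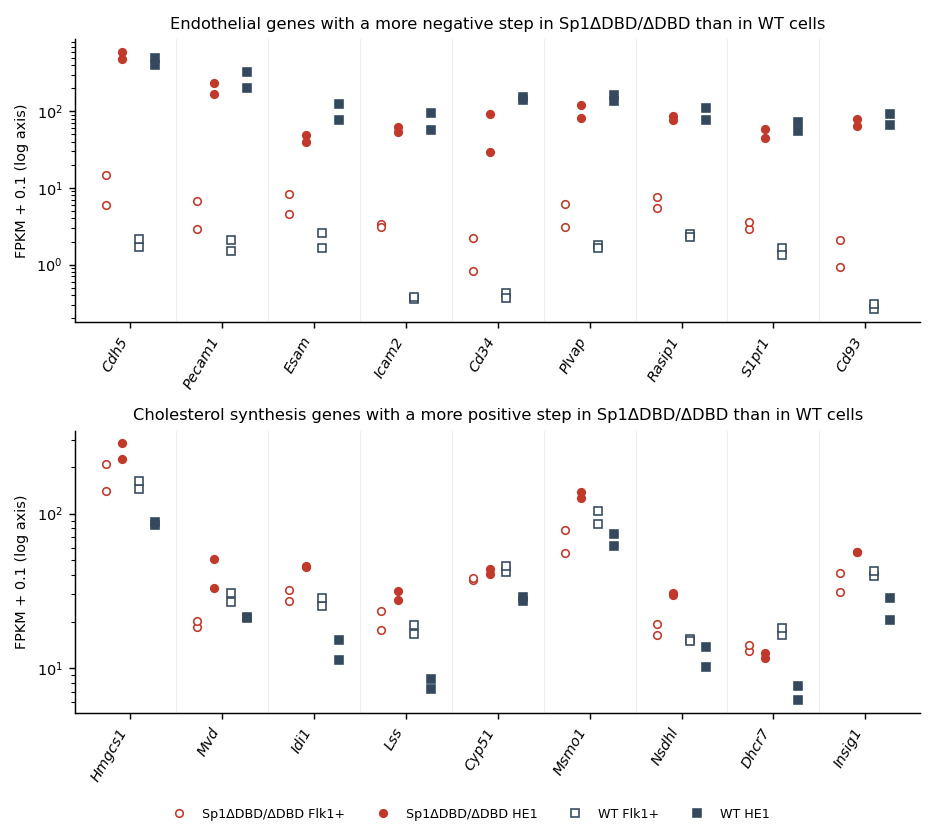
FPKM + 0.1 on a log axis in each Flk1+ and HE1 sample of Sp1ΔDBD/ΔDBD and WT cells for the 9 endothelial and 9 of the 10 cholesterol genes whose step differed from that of WT, 1 point per sample. Mutant points are above WT points on the Flk1+ side in all 9 endothelial genes and on the HE1 side in all 9 cholesterol genes. In HE1 the mutant points of 3 endothelial genes (Esam, Cd34 and Plvap) are also below WT. In Flk1+ cells 4 of the 10 cholesterol genes were below WT, 1 was above and 5 overlapped. Over all genes the genotypes did not overlap in 55.2% in Flk1+ cells and 50.0% in HE1, in either direction. The genes were chosen by a difference that contains both comparisons.

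Because members of these 2 lists moved together, their promoters are shown with the motif that Sp1 binds. They run from 250 bases before to 50 after the start of transcription and were taken from RefSeq (GRCm38.p6, the assembly of mm10), which gave a promoter for 11187 of the genes tested, for 16 of the 24 cholesterol genes and for 16 of the 33 endothelial genes. The first 4 belong to cholesterol genes with a more positive step in the mutant and the last 2 to endothelial genes with a more negative one. The GC box GGGCGG on either strand is in capitals, as is 1 match to the sterol regulatory element TCACNCCAC.
Hmgcs1 (chr13:119690101-119690400, plus strand): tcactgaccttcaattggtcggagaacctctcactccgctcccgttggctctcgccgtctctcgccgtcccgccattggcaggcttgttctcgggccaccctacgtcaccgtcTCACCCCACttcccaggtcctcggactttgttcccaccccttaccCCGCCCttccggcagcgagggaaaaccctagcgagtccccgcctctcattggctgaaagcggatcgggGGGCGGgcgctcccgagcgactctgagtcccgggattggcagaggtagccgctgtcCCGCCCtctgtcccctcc
Lss (chr10:76531355-76531654, plus strand): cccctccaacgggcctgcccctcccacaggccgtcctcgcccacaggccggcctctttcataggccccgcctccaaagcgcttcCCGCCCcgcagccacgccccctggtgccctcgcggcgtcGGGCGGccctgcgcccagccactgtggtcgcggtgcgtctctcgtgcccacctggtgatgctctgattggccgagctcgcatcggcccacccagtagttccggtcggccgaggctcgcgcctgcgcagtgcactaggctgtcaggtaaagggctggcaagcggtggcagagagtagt
Idi1 (chr13:8885356-8885655, plus strand): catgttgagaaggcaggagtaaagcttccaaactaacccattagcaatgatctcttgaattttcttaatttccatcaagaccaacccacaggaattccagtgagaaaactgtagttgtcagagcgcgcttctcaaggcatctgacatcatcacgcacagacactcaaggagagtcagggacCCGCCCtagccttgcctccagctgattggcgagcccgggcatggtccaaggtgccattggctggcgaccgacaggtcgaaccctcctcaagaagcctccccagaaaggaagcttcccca
Insig1 (chr5:28071162-28071461, plus strand): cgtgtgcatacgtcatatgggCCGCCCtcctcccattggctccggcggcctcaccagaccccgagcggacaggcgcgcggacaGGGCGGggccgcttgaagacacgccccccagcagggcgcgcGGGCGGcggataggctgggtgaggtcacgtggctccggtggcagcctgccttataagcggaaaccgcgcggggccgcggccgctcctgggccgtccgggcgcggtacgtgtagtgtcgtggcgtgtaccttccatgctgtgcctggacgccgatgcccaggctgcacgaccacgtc
Cd34 (chr1:194938571-194938870, plus strand): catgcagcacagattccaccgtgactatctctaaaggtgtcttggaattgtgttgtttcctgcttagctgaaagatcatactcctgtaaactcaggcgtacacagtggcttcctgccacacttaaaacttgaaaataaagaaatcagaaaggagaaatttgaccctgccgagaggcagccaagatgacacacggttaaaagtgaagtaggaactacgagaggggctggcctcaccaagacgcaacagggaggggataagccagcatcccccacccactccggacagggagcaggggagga
Rasip1 (chr7:45627287-45627586, plus strand): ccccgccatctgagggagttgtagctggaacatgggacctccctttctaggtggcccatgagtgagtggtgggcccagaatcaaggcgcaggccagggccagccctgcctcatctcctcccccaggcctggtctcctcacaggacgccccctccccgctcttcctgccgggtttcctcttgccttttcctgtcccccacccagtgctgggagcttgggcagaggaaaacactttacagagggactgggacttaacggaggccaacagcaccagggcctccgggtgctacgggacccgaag
Hmgcs1 holds 3 GC boxes, at positions 159, 227 and 283 counted from 1 at the first base printed, and the sterol element at position 114. Lss holds 2 boxes, Idi1 1 and Insig1 3, and no match to these letters lies in the windows of Cd34 and Rasip1. Over the lists, 15 of 16 cholesterol promoters (93.8%) and 6 of 16 endothelial promoters (37.5%) had a GC box, against 63.1% of the promoters of all genes tested and 35.9% of all 27025 promoters of the table. The sterol element was in 1 of 16 cholesterol promoters and in 1.07% of those of all genes tested. A GC box was in 65.4% of the promoters of genes that rose in the mutant step, in 65.4% of those that fell, in 62.1% of those with a step above WT and in 69.4% of those with a step below WT. A match is a description of the letters and not a bound site.

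Outside these lists Tmem159, Asb4, Gstk1 and Renbp were among the largest negative differences. Tmem159 (chr7:120102353-120120992) had 0.439 and 0.647 FPKM in mutant Flk1+ cells and the lowest value in both mutant HE1 samples, against 3.31 and 2.88 and then 12.5 and 19.6 FPKM in WT (limma adjusted p = 3.9e-06). Gstk1, a mitochondrial glutathione transferase gene, went from 1.93 and 1.73 to 0.436 and 0.438 FPKM in the mutant and from 3.83 and 4.17 to 11.9 and 13.1 FPKM in WT (difference -3.46 ± 0.68, limma adjusted p = 0.012). Renbp went from 4.6 and 4.84 to 0.749 and 1.85 FPKM in the mutant and from 21.5 and 21 to 35.3 and 58.6 FPKM in WT. In these 3 genes the mutant was below WT at both ends of the step and the distance was wider in HE1. Tmem159, Gstk1 and Renbp also differed from the Sp3-/- step, in which they changed by 1.55, 2.28 and 0.97. Asb4 went from 53.8 and 110.5 to 4.24 and 4.09 FPKM in the mutant and from 41.7 and 51.7 to 23.5 and 41.9 FPKM in WT, and Tgfbi, a matrix protein induced by TGF-beta, from 1.96 and 1.5 to 6.82 and 2.28 FPKM against 1.0 and 0.593 to 28 and 24 FPKM. Their limma adjusted p values were close to the threshold, 0.044 for Asb4 and 0.046 for Tgfbi. Asb4 was not called whichever of the 8 libraries was left out, and Tgfbi was called in 1 of those 8 fits.

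On the positive side Unc5c, a netrin receptor gene, went from 7.3 and 14.8 to 29.8 and 61.4 FPKM in the mutant and from 21.2 and 28.7 to 11.6 and 10.9 FPKM in WT, a difference of 3.16 ± 0.45 (limma adjusted p = 0.0018). Dcxr, a reductase gene, went from 3.8 and 2.5 to 20.4 and 19.8 FPKM in the mutant and from 15.5 and 14 to 24.7 and 31 FPKM in WT. Aldoc, a glycolytic aldolase gene, fell in both, from 0.769 and 1.42 FPKM in the mutant and 12.6 and 14.5 FPKM in WT to under 0.2 FPKM, with a difference of 3.44 ± 0.58 and the genotypes apart at the Flk1+ end. In the cell cycle list 29 of 32 differences were positive and those of Ccna2 and Aurkb passed, at 0.58 ± 0.13 and 0.64 ± 0.14, and in HE1 7 of the 32 genes were higher in the mutant than in WT (all genes, 5.69%), or 2 without Sp1ΔDBD/ΔDBD HE1 replicate 2 or either WT HE1 replicate. In the p53 list 3 of 24 differences passed on the positive side (all genes, 0.847%) and 0 on the negative side. Ccng1, Gadd45b and Phlda3 rose further in the mutant than in WT, with differences of 1.19 ± 0.23, 1.52 ± 0.37 and 1.26 ± 0.23. In Flk1+ cells 0 of the 24 genes were higher and 5 lower in the mutant than in WT (all genes, 2.92% and 2.62%). In HE1 0 were higher and 2 lower (all genes, 5.69% and 4.35%). In the Notch list Notch4 and Dll4 rose less than in WT, with differences of -3.00 ± 0.55 and -2.84 ± 0.53. Among the genes named for a difference from WT, Aldoc, Cfc1, Dcxr, Icam2, Lss, Phlda3, Tmem159 and Unc5c were called whichever of the 8 libraries was left out. Renbp, Ccng1, Dll4 and Gstk1 were not called without WT Flk1+ replicate 2. Ccng1 was also lost without Sp1ΔDBD/ΔDBD HE1 replicate 2, Gstk1 without WT Flk1+ replicate 1 and Dll4 without WT HE1 replicate 1. Notch4 was not called without Sp1ΔDBD/ΔDBD HE1 replicate 2, Aurkb was called in 1 of the 8 fits, and Ccna2 and Gadd45b in 0.

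Against Sp3-/- cells, 30 genes had a more positive change in Sp1ΔDBD/ΔDBD cells (0.207%) and 34 a more negative one (0.234%). Together these 64 genes (0.441%) became 24 without Sp1ΔDBD/ΔDBD Flk1+ replicate 2 and 34 without Sp1ΔDBD/ΔDBD HE1 replicate 2. The Sp3-/- step had 3003 rises (20.7%) and 3388 falls (23.3%). Of the genes in the lists, Gfi1b, Myb, Nfe2, Alox5ap and Fgf3 were lower in the Sp1ΔDBD/ΔDBD step and Ccng1, Gadd45b, Cdh2 and Lss higher. No member of the endothelial list passed the test between the mutant steps. The medians of that list were 4.01 in Sp1ΔDBD/ΔDBD, 3.99 in Sp3-/- and 5.43 in WT cells, and those of the cholesterol list 0.63, 0.04 and -0.37.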

How the data were processed

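RNA was sequenced as ribosome-depleted, stranded, paired-end libraries. Per the labels and the study's methods, the authors trimmed reads with trimmomatic 0.32, aligned them to mm10 with HISAT2 2.1.0, computed FPKM with StringTie 1.3.3 and deposited FPKM values that were quantile-normalised over all samples, for genes above 1 FPKM in at least 1 sample. Quantile normalisation gives every sample the same distribution, so a change of total RNA or of most genes at once would not show. Samples were grouped by their labels. Genes at or below 1 FPKM in every sample were left out, which kept 14525 of 14685. Values were taken as log2(FPKM + 0.1) and fitted with limma 3.58.1 in R 4.3.3 with 1 mean for each of the 15 groups over all 30 samples (15 residual degrees of freedom, intensity trend), so that all groups share 1 estimate of the spread. Tests were two-sided, with Benjamini-Hochberg adjustment over all genes at 0.05. The comparisons were HE1 against Flk1+ in Sp1ΔDBD/ΔDBD cells, the same in WT and Sp3-/- cells, the differences between these steps, and the genotypes within each population. Alternatives were a pseudocount of 1, other filters, fits to 12, 8 or 4 samples, a replicate block, a correction for GC content and length (lowess, span 0.3, GENCODE M21, 14402 genes), no intensity trend and each library left out in turn, which for the genotypes within a population was added after the data were seen. The test was checked on simulated data. Named genes were the 15 largest rises and falls among called genes with a mean of at least 10 FPKM in one population, the 10 largest differences from WT on each side by the same minimum, the leading called members of each gene list, and list members whose step differed from WT; other list members were named after their values were seen, as examples of a role, and a few genes that the rule names are not reported here. The members and lists were chosen with earlier results of these data known. Depth is unknown, as no counts were used. Python 3.11.15, pandas 2.3.3 and matplotlib 3.10.9 were used for tables and figures.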

Additional observations from a re-analysis of the deposited data

Results flagged for a closer look

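The change from Flk1+ to HE1 differed between Sp1ΔDBD/ΔDBD and WT cells (interaction in limma, adjusted p below 0.05) in the 42 genes given below. These 42 were chosen by this test, which 1.53% of all genes passed, so the count is no result about the named genes. Some genes named above for other reasons passed it too, among them Fmo1 at -2.35 and the sort marker Tek at -2.07. The values are mutant step minus WT step in log2(FPKM + 0.1). Both samples of each group fed each value, and no explanation was tested.

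Differences on the positive side outside the lists were Cfc1 3.47, Unc5c 3.16, Smim10l2a 2.12, Amer3 1.81, Dcxr 1.76 and Snhg6 1.56. Cfc1, the Nodal co-receptor Cryptic, was at the lowest value in both WT HE1 samples, so its size depends on the added 0.1. In the cholesterol list they included Lss 1.71, Idi1 1.66, Mvd 1.52, Msmo1 1.46, Insig1 1.41, Hmgcs1 1.38, Dhcr7 1.16, Nsdhl 1.13 and Cyp51 0.81. In other lists they were Aldoc 3.44, Spink1 2.92, Notum 2.76, Klf8 1.88, Gadd45b 1.52, Phlda3 1.26, Ccng1 1.19, Aurkb 0.64 and Ccna2 0.58.

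Differences on the negative side were, in the endothelial list, Icam2 -3.48, Cd34 -3.28, Esam -2.71, Cd93 -2.45, Cdh5 -2.03, Plvap -1.94, Pecam1 -1.72, Rasip1 -1.63 and S1pr1 -1.43. In other lists they were Tgfbi -3.74, Cer1 -3.54, Sox18 -3.26, Notch4 -3.00 and Dll4 -2.84, and outside them Tmem159 -4.95, Asb4 -3.61, Gstk1 -3.46 and Renbp -3.00. Tmem159 and Cer1 were at the lowest value in both mutant HE1 samples, so their size also depends on the added 0.1. Other sizes moved with the processing as well. Over the alternatives other than leaving out 1 library, Icam2 ran from -3.48 to -2.05 and Cd34 from -3.43 to -2.31. Cd93 ran from -2.48 to -1.13, Dll4 from -2.84 to -1.39 and Esam from -2.71 to -2.37. Cd93 was not called at a pseudocount of 1.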

How the results depend on the processing

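The number of genes that rose in the mutant step was within 1.5 times the reported 3042 under every alternative run (2180 to 3684), and the number that fell was 2270 in the fit to the 4 samples and within that margin otherwise. Leaving out 1 library at a time gave 2423 to 2653 and 2793 to 3098. Without the minimum mean, 4283 genes had a fold above 2. The differences from WT were less stable. The 123 more positive changes were 79 in the fit to 12 samples, 12 in that to 8 samples, 278 with the replicate block and the GC and length correction, and 32 to 118 with 1 library left out. The 99 more negative changes were 153 at a pseudocount of 1, 5 with 8 samples, 164 with the GC and length correction, 274 with the block and that correction, and 20 to 120 with 1 library left out. Of the 64 differences from Sp3-/-, 118 were called at a pseudocount of 1, 26 with 12 samples, 181 with the block and the correction, and 24 to 72 with 1 library left out. Among the 95 genes named for the step and the 42 named for the difference from WT by the rule, none changed sign under the alternatives run. Of the 95 genes named for the step, 87 to 95 kept their call in each setting, and of the 42 named for the difference from WT, 0 to 42 did.

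The labels do not say that a replicate number marks a shared culture. The deviations of samples of the same number from their group means (10052 genes) correlated at 0.402 between Flk1+ and HE1 in the mutant, 0.0339 in WT and -0.0814 in Sp3-/- cells. Over the 6 pairs of populations computed per genotype, r ran from 0.171 to 0.649 in the mutant, -0.0609 to 0.394 in WT and -0.0814 to 0.161 in Sp3-/- cells, and between the mutant and WT it was 0.261 in Flk1+ cells and 0.282 in HE1. The correlation was above 0.1 in every pair in the mutant and not in the other genotypes, so the pairing was not taken as given. With the replicate block in the fit to all samples the differences from WT were 226 and 207 and those from Sp3-/- 122, and with the block in the fit to 12 samples they were 0 and 0, and 2. The cause was not tested. Depth could not be assessed, and 2 samples per group limit every comparison.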
